A study of Homo sapiens with 46 samples.

Results

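Ribosomes are built in the nucleolus, where RNA polymerase I transcribes the precursor of the large ribosomal RNAs. Small nucleolar ribonucleoproteins (snoRNPs) then modify that precursor, the small subunit processome and later factors cut and fold the small-subunit part, and a separate set of factors assembles the large subunit. Many of these genes are known targets of the transcription factor MYC, and their messenger levels usually follow cell growth. The 48 genes described here were listed by name from this pathway: 5 RNA polymerase I subunits, 3 initiation factors of that enzyme, the 2 nucleolar adaptors TCOF1 and NOLC1, 4 box C/D and 4 box H/ACA snoRNP proteins, 7 small subunit processome proteins, 6 later small subunit factors, 12 large subunit factors and 5 abundant nucleolar proteins. All 48 were found among the 61228 genes of the HCT116 table and the 30160 genes of the HEK293 table, and all 48 passed the filter on low counts in every comparison.

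RNA sequencing was done on 46 libraries in 18 groups from human cell lines that lost Ku, the Ku70 and Ku80 dimer that binds DNA ends, in 3 models. HCT116 is a colon carcinoma line, and its Ku80-AID clones 1, 7 and 9 carry Ku80 with an auxin-inducible degron. They were given 100 µM indole-3-acetic acid (IAA) together with 0.5 µg/mL doxycycline for 1 day (2 libraries, clones 1 and 9), 2, 4 or 6 days (3 libraries each), and their controls DMSO for 1 day (2 libraries) or 2 days (3 libraries). The 4-day and 6-day libraries have only the 2-day DMSO control, so time in culture and treatment cannot be told apart there. A CDK4/6 inhibitor, which holds cells in G1, was given alone or with IAA and doxycycline for 2 days (2 libraries each, clones 1 and 9) and 4 days (3 libraries each). A further 3 degron clones (1, 13 and 15) also lack MAVS, the adaptor of cytosolic RNA sensing, in both arms, and received DMSO or IAA with doxycycline for 4 days (3 libraries each). HCT116 Ku86flox/- cells keep 1 floxed Ku80 allele, the other being deleted in all 4 groups, and carried CreERT2 or no Cre. They were given ethanol or 50 nM 4-hydroxytamoxifen (4OHT) for 4 days, with 2 numbered libraries per group. HEK293 is an embryonic kidney line, and its clones Sa11, SB and TI lack the native Ku70 gene in both arms and live on a doxycycline-dependent Ku70. They were compared with 1 µg/mL doxycycline and 8 days after its removal (3 libraries each). Doxycycline was thus added where Ku was lost in the degron clones, was removed where Ku was lost in HEK293, and was absent from the Ku86flox/- cells.

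Library totals ran from 9527918 to 45747408 estimated counts in the degron clones, 13046742 to 17608963 in the Ku86flox/- cells and 19568398 to 28483236 in HEK293. Messenger levels of the targeted genes followed the labels where the design acts on RNA: XRCC5 (Ku80) was at 161 to 166 TPM in ethanol and 13.2 to 17.3 TPM after 4OHT with Cre, and XRCC6 (Ku70) at 3687 to 4983 TPM with doxycycline and 277 to 486 TPM without it. The degron acts on the Ku80 protein, so the XRCC5 messenger does not check those labels. Of 10 colon epithelial markers, 6 were at 1 TPM or more in every degron and every Ku86flox/- library. CDX1 and CDH17 were under 1 TPM in all of them, and LGALS4 in every Ku86flox/- library. In HEK293, 5 of 8 embryonic kidney line markers passed that level in every library and NEFM was under it in all. There 5 of the 10 colon epithelial markers passed it in every library too. The colon list summed to 194 to 506 TPM in HEK293, 1912 to 4575 TPM in the degron and 2723 to 4597 TPM in the Ku86flox/- libraries. For the kidney list these sums were 591 to 765, 3.66 to 38.4 and 9.50 to 21.7 TPM. Of 12 blood and stromal markers, 8 were under 1 TPM in every degron library, 11 in every Ku86flox/- library and 7 in every HEK293 library. Their summed level was 6.19 to 23.3 TPM in the degron, 15.4 to 25.6 TPM in the Ku86flox/- and 243 to 730 TPM in the HEK293 libraries.

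The 1-day and 2-day controls of the degron clones differed for these genes, and the labels used here give no batch. The summed level of the 48 members, in CPM (counts scaled to library size with TMM factors), was 15171 and 15665 in the 1-day DMSO libraries of clones 1 and 9 and 9343, 9682 and 9984 in the 2-day DMSO libraries of clones 1, 7 and 9. Fibrillarin (FBL) stood at 726 and 616 CPM in the former and 154, 151 and 149.6 CPM in the latter. NPM1 and NCL weigh most in the summed level, at 1638 and 1607 CPM in the 2-day DMSO library of clone 1. In a comparison of the 2 controls added after the data were seen, 35 of 48 members were called higher and 0 lower in the 1-day controls, against 22.1% and 15.1% of all genes (edgeR quasi-likelihood test, adjusted p under 0.05, the call rule for every count below). With no member called lower there, 37 members had an unadjusted p under 0.05 in either direction. These controls also differ in day, so the day and any difference between sets of libraries cannot be told apart. FBL was higher in each of the 8 libraries of the 1-day groups and the 2-day inhibitor groups, the lowest at 351 CPM, than in every other degron library, the highest at 339.9 CPM, a gene chosen after its values were seen. The summed level gave no such separation, since the 2-day libraries with IAA and inhibitor, at 8860.3 and 9639 CPM in clones 1 and 9, lay within the range of the others. These 8 libraries are called a set below because their titles give the time in hours. Titles of the other degron libraries give it in days or not at all. No label says that the set was prepared apart.

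**Figure D1:**
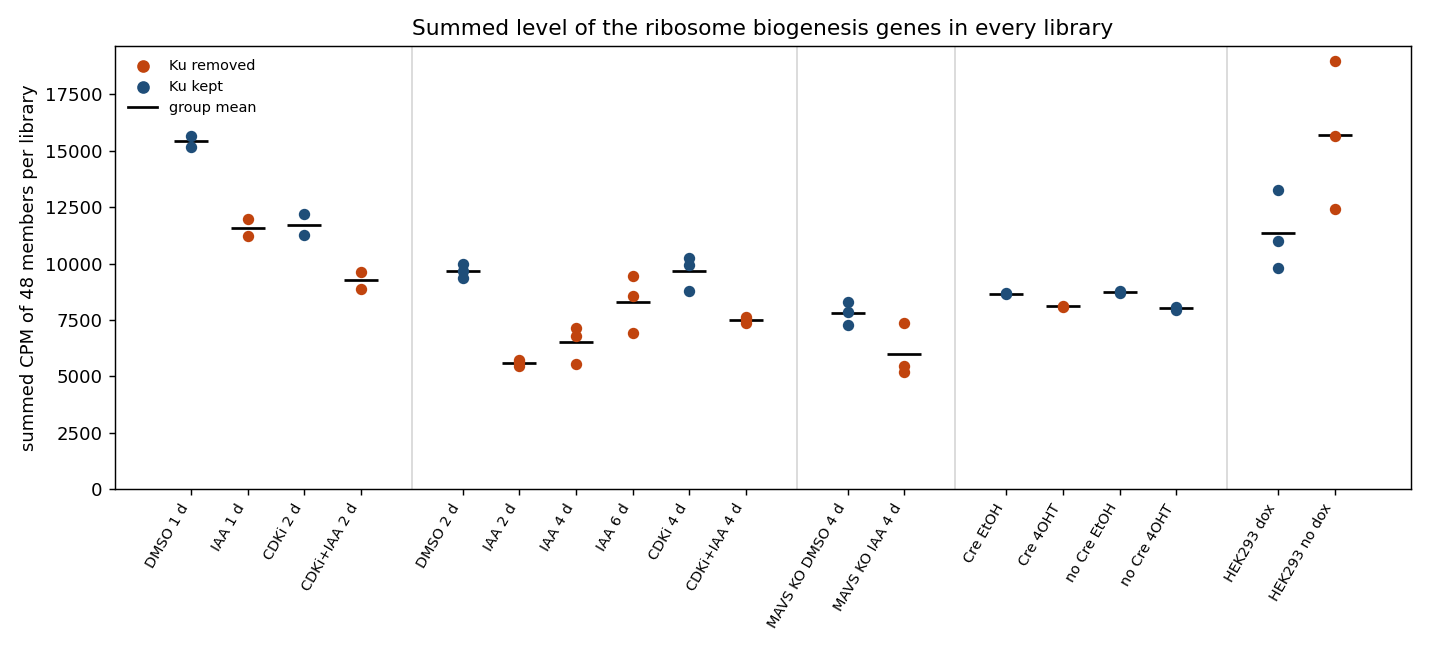
Summed CPM of the 48 members (vertical axis) in every library (points), by group along the horizontal axis, with the group mean as a bar and grey lines between sets of groups. The 2-day IAA libraries lie between 5450 and 5708, below all 3 of their DMSO controls, and the 1-day DMSO libraries lie at 15171 and 15665.

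At matched scale per transcript length, the members spanned a wide range of levels. In the 2-day DMSO libraries NPM1 was highest at 2722 ± 157 TPM (SD, n = 3), followed by NCL at 1192 ± 68.4 TPM and NOP56 at 472 ± 51.0 TPM, gaps larger than the spread between clones. TAF1D at 371 ± 37.1 TPM and GNL3 at 371 ± 19.4 TPM did not differ beyond that spread. The lowest were RRP9 at 33.0 ± 1.80 TPM, RRP15 at 24.2 ± 6.53 TPM and UTP20 at 19.5 ± 2.41 TPM, of which the last 2 overlapped within their spread. NPM1 and RRN3 have near-identical pseudogene copies, PPAN shares transcripts with a neighbouring gene, and NCL, NOP56 and TAF1D host snoRNAs in their introns, so counts of these genes are uncertain where reads are shared.

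The first comparison addressed the response to 2 days of IAA. Of the 48 members 41 fell and 0 rose, while 9.94% of all 18877 genes were called lower and 9.12% higher. The median log2 change of the members was -0.70, and that of all genes was 0. Values in parentheses after a gene, here and later, are log2 changes with their standard error where one is given. All 3 clones moved down for 46 members, and IAA and DMSO libraries did not overlap for 44, counts that were not made over all genes. The members' summed level was 5450.0, 5708 and 5631 CPM in clones 1, 7 and 9, against the DMSO values above. With no member called higher, 43 members passed an unadjusted p of 0.05, and 42 were lower and 0 higher by DESeq2. The 12 cell cycle markers all fell too, from a summed 2432 to 2785 TPM to 1032 to 1589 TPM, and MYC fell by 1.20 ± 0.24 (adjusted p = 0.00063) on the log2 scale. The part of either in the members' fall was not tested. In bulk RNA, fewer cells of a kind and less RNA per cell cannot be told apart.

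Among the RNA polymerase I subunits, 4 of 5 fell at 2 days. POLR1B, which with POLR1A forms the catalytic core of the enzyme, was at 119, 131 and 129 CPM in the DMSO libraries of clones 1, 7 and 9, 61.9, 58.8 and 58.5 CPM after 2 days of IAA, 65.3, 77.9 and 69.3 CPM after 4 days and 98.8, 79.2 and 93.4 CPM after 6 days, in that order of clones throughout. All 9 IAA values of POLR1B lay below all 3 controls, with log2 changes of -1.08 at 2 days, -0.83 at 4 days and -0.48 at 6 days (adjusted p = 5e-07, 3.7e-06 and 0.002). POLR1A was at 177, 192 and 190.4 CPM in DMSO, 134, 136 and 144 CPM at 2 days of IAA, 156, 152 and 171 CPM at 4 days and 176, 188 and 168 CPM at 6 days. It fell at 2 days (-0.43 ± 0.09, adjusted p = 0.0011), where the groups did not overlap, and its 6-day libraries overlapped the controls (-0.07 ± 0.09, adjusted p = 0.59). At 4 days it was not called (-0.22 ± 0.09, adjusted p = 0.059) and fell with the clone as a block (-0.23 ± 0.08, adjusted p = 0.032). POLR1C, a subunit shared with RNA polymerase III, fell at all 3 times with log2 changes of -0.77 at 2 days, -0.89 at 4 days and -0.41 at 6 days, as did POLR1E, a subunit that helps the enzyme start transcription, with -0.64 at 2 days, -0.61 at 4 days and -0.56 at 6 days. POLR1D, the partner of POLR1C in both enzymes, was not called at 2 days (0.12 ± 0.10, adjusted p = 0.52) and rose at 6 days (0.29 ± 0.10, adjusted p = 0.029), a call lost without the DMSO or the 6-day library of clone 1 or of clone 7.

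Of the 3 initiation factors 1 was called at 2 days. UBTF, which coats active ribosomal DNA, was at 144, 153 and 148 CPM in DMSO, 90.8, 103 and 101 CPM at 2 days of IAA, 90.1, 82.8 and 95.4 CPM at 4 days and 107, 88.3 and 108 CPM at 6 days. Its IAA libraries stayed below the controls at 2, 4 and 6 days, with log2 changes of -0.60 at 2 days, -0.73 at 4 days and -0.55 at 6 days (largest adjusted p of the 3 times 3.9e-05), and the change from 2 to 6 days was 0.04 ± 0.09 (adjusted p = 0.78). RRN3, the factor that recruits the polymerase to the promoter, was at 105, 106 and 98.7 CPM in DMSO, 96.3, 89.6 and 98.7 CPM at 2 days of IAA, 76.1, 94 and 78.9 CPM at 4 days and 121, 86.3 and 117 CPM at 6 days. It was not called at 2 days (-0.12 ± 0.11, adjusted p = 0.52), fell at 4 days (-0.31 ± 0.11, adjusted p = 0.028) and was not called at 6 days. The 4-day call was lost without any 1 of the 3 DMSO libraries or the 4-day library of clone 1 or 9. TAF1D, a subunit of the promoter selectivity factor, had log2 changes of -0.38 at 2 days, -0.27 at 4 days and -0.24 at 6 days and was called at none of these times.

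The adaptors TCOF1 and NOLC1, which link the polymerase and the snoRNPs to the nucleolus, both fell. TCOF1 was at 144, 162 and 157 CPM in DMSO, 73.1, 84.7 and 86.6 CPM at 2 days of IAA, 89.1, 75 and 88 CPM at 4 days and 128, 116 and 129 CPM at 6 days. The 2-day and 4-day libraries lay below every control, with changes of -0.92 ± 0.14 (adjusted p = 2.7e-05) and -0.87 ± 0.14 (adjusted p = 1.6e-05). At 6 days all 3 clones were still below the lowest control, but the change missed the threshold (-0.31 ± 0.14, adjusted p = 0.079) and passed it with the clone as a block (-0.31 ± 0.10, adjusted p = 0.017). NOLC1 fell at all 3 times with log2 changes of -0.93 at 2 days, -0.66 at 4 days and -0.42 at 6 days.

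All 4 box C/D proteins, which carry out 2'-O-methylation of ribosomal RNA, fell at 2 days with a median log2 change of -0.88. FBL, the methyltransferase itself, was at 154, 151 and 149.6 CPM in DMSO, 74.6, 80.7 and 81.3 CPM at 2 days of IAA, 103, 63.7 and 73.9 CPM at 4 days and 116, 80.3 and 94.6 CPM at 6 days. Every IAA library was below every DMSO library, and the log2 changes were -0.94 at 2 days, -0.92 at 4 days and -0.64 at 6 days (adjusted p = 0.00045, 0.00025 and 0.006). NOP56, a scaffold of the particle, was at 309.8, 339.7 and 361 CPM in DMSO, 134, 144 and 166 CPM at 2 days of IAA, 171, 172 and 209.5 CPM at 4 days and 289.5, 267 and 301 CPM at 6 days. It had the largest fall of the 48 at 2 days (-1.19 ± 0.14, adjusted p = 7.9e-07), and its 6-day libraries remained below the lowest control by less (-0.24 ± 0.13, adjusted p = 0.18). RRP9, specific to the U3 particle that guides early cuts, fell at 2 days (-0.81 ± 0.19, adjusted p = 0.003) and rose at 6 days (0.56 ± 0.18, adjusted p = 0.019). NOP58, the other scaffold, had log2 changes of -0.68 at 2 days, -0.54 at 4 days and -0.18 at 6 days, called at 2 and 4 days.

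Box H/ACA proteins, which convert uridines to pseudouridine, fell in 3 of 4 cases at 2 days. DKC1, the pseudouridine synthase, was at 147, 163 and 162 CPM in DMSO, 79.9, 86.8 and 95.9 CPM at 2 days of IAA, 89.1, 107 and 122 CPM at 4 days and 176, 139.6 and 149 CPM at 6 days. It fell at 2 days (-0.85 ± 0.14, adjusted p = 8.6e-05) and 4 days (-0.57 ± 0.14, adjusted p = 0.0023), and overlapped the controls at 6 days (-0.02 ± 0.14, adjusted p = 0.95). NOP10, the smallest protein of the particle, was at 43.5, 53.6 and 51.3 CPM in DMSO, 43.4, 49.4 and 42.3 CPM at 2 days of IAA, 58.4, 47.7 and 52.2 CPM at 4 days and 84.6, 55.3 and 74.7 CPM at 6 days. Its 2-day values sat within or just under the control range (-0.14 ± 0.15, adjusted p = 0.63), and at 6 days it was above all controls (0.53 ± 0.15, adjusted p = 0.0071). NHP2, which binds the same particle, fell at all 3 times with log2 changes of -0.79 at 2 days, -1.05 at 4 days and -0.61 at 6 days, and GAR1 only passed the test at 2 days (-0.65 ± 0.20, adjusted p = 0.022).

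In the small subunit processome 7 of 7 members fell at 2 days, within a narrow range from -0.81 to -0.61, and none was called at 6 days. HEATR1, needed for polymerase I transcription and early processing, was at 206, 207 and 206 CPM in DMSO, 136, 127 and 132 CPM at 2 days of IAA, 121, 153 and 148 CPM at 4 days and 207, 136 and 183 CPM at 6 days. UTP20, a large scaffold protein, was at 87.6, 92.3 and 101 CPM in DMSO, 60.7, 52.2 and 47.7 CPM at 2 days of IAA, 50, 84 and 70.5 CPM at 4 days and 99, 64.2 and 69.2 CPM at 6 days. Both fell at 2 days without overlap (-0.65 ± 0.13, adjusted p = 0.00085, and -0.80 ± 0.15, adjusted p = 0.00046). By 6 days the clones spread from below the lowest control to within the control range, and neither was called. UTP4 (-0.81), NOP14 (-0.80), UTP15 (-0.68), WDR43 (-0.62) and WDR75 (-0.61) completed the group at 2 days.

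Of the later small subunit factors, 5 of 6 fell at 2 days. NOB1, the endonuclease that makes the final cut of the small-subunit RNA, was at 109, 115 and 113 CPM in DMSO, 73.9, 68.1 and 65.9 CPM at 2 days of IAA, 93.9, 73 and 90.5 CPM at 4 days and 104, 106 and 98 CPM at 6 days. It fell at 2 days (-0.70 ± 0.11, adjusted p = 5.2e-05) and 4 days (-0.39 ± 0.11, adjusted p = 0.0068), and was below all controls but not called at 6 days (-0.14 ± 0.11, adjusted p = 0.36). RRP12, an export factor of both subunits, went the other way. It was at 86.7, 94 and 95 CPM in DMSO, 86.8, 83.9 and 88.3 CPM at 2 days of IAA, 170.4, 133 and 139 CPM at 4 days and 191, 186 and 167 CPM at 6 days. The 2-day libraries overlapped the controls (-0.09 ± 0.16, adjusted p = 0.79), and RRP12 rose at 4 days (0.68 ± 0.16, adjusted p = 0.0018) and 6 days (0.98 ± 0.16, adjusted p = 3.1e-05), with all 3 clones above every control. BYSL (-0.68), PNO1 (-0.57), LTV1 (-0.71) and TSR1 (-0.72) all fell at 2 days.

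The large subunit assembly factors fell in 10 of 12 cases at 2 days. PES1 and BOP1 form a complex with WDR12 that is needed for early large-subunit processing. BOP1 was at 107, 131 and 139.6 CPM in DMSO, 54.4, 62.7 and 73.8 CPM at 2 days of IAA, 89.8, 61.7 and 74.4 CPM at 4 days and 129, 109.9 and 117 CPM at 6 days. PES1 was at 120.3, 127 and 129 CPM in DMSO, 90.7, 76.1 and 89 CPM at 2 days of IAA, 115, 92.7 and 109 CPM at 4 days and 177, 130.2 and 160.3 CPM at 6 days. Both fell at 2 days (-0.99 ± 0.21, adjusted p = 0.0014 for BOP1, and -0.56 ± 0.14, adjusted p = 0.0055 for PES1), and at 6 days the changes were -0.08 ± 0.21 and 0.31 ± 0.14, neither called. PES1 passed at 6 days with the clone as a block (0.30 ± 0.11, adjusted p = 0.031). WDR12 fell at 2 and 4 days (-0.69 and -0.48), and RRP1 at all 3 times (-0.72 at 2 days, -0.59 at 4 days and -0.54 at 6 days). RRP15 and GRWD1 were called at none of the 3 times. The others, NOP16, RRS1, BRIX1, PPAN, NOP2 and NIP7, had 2-day log2 changes from -0.88 to -0.48.

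All 5 abundant nucleolar proteins fell at 2 days, with a median of -0.96. Nucleolin (NCL), which binds the nascent ribosomal RNA, was at 1607, 1652 and 1778 CPM in DMSO, 792, 890.0 and 900.0 CPM at 2 days of IAA, 799, 1032 and 1257 CPM at 4 days and 1381, 1020.5 and 1374 CPM at 6 days. Nucleophosmin (NPM1), which shapes the granular layer of the nucleolus, was at 1638, 1701 and 1771 CPM in DMSO, 842, 930.2 and 848 CPM at 2 days of IAA, 604, 977 and 989 CPM at 4 days and 1299, 752 and 1219 CPM at 6 days. Every IAA library of both genes lay below every DMSO library. Log2 changes were -0.96 at 2 days, -0.71 at 4 days and -0.42 at 6 days for NCL and -0.96 at 2 days, -0.99 at 4 days and -0.64 at 6 days for NPM1, called at each time. GNL3 (nucleostemin, -1.05), the helicase DDX21 (-0.71) and MYBBP1A (-0.60) fell at 2 days as well.

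**Figure D2:**
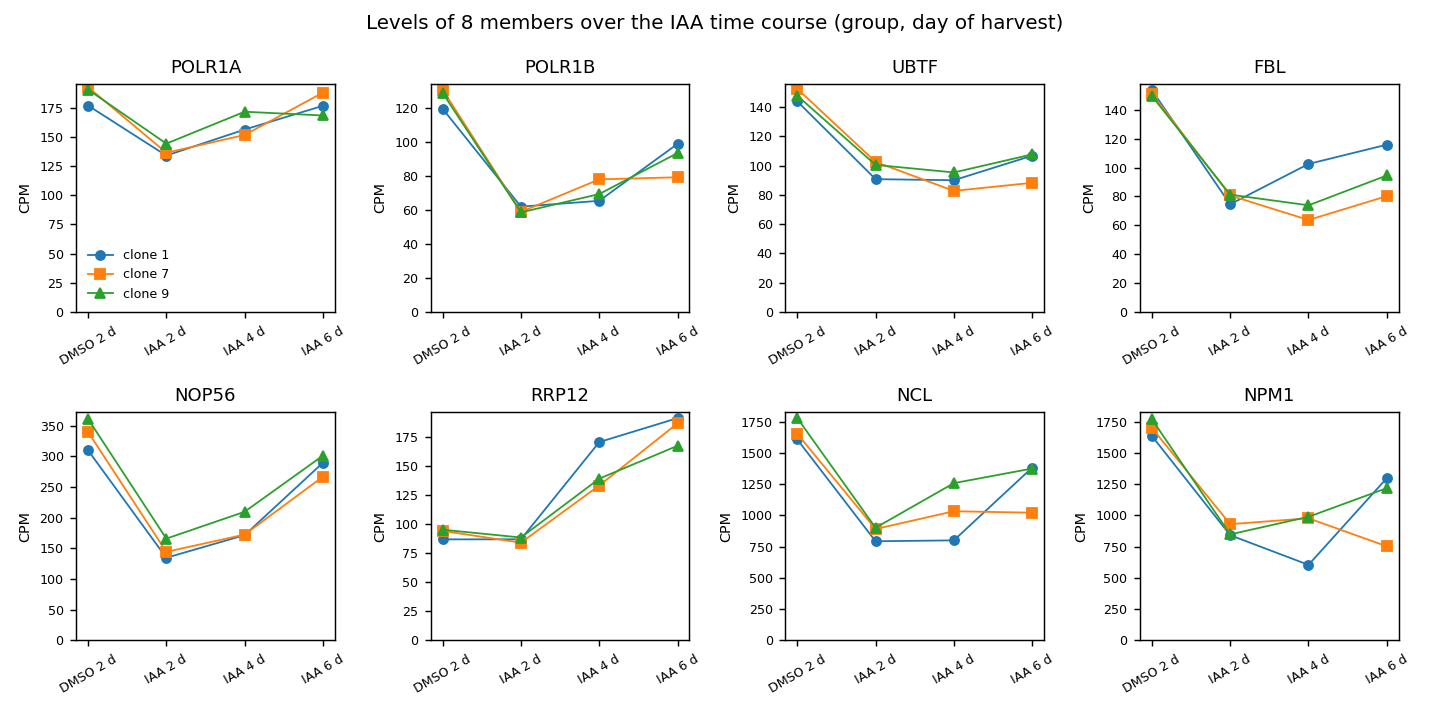
CPM of 8 members (vertical axes, from 0) in the 2-day DMSO controls and after 2, 4 and 6 days of IAA (horizontal axes), with 1 line and marker per clone. POLR1B, FBL, NCL and NPM1 stay below the controls in all 3 clones, while RRP12 lies above them at 4 and 6 days.

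Promoter sequences of the members are held in a RefSeq table of the build GRCh38.p14, from 250 bases before to 50 bases after each start, for 41 of the 48 members and 27305 genes in all. Short motifs, 11 in all, were counted on both strands, and 2 palindromes, chosen after the counts were seen, are shown because member promoters held them more often than all promoters did: CACGTG, the E-box that MYC with MAX can bind, and TCGCGA. The E-box CACGTG was in 13 of 41 member promoters (31.7%) and in 7.43% of all promoters, and TCGCGA in 8 of 41 (19.5%) and in 3.16%. Shares for the other motifs, members against all promoters, were 48.8% and 19.9% for CGGAAG, 19.5% and 4.44% for CCGGAAGT, which overlaps it, 80.5% and 44.6% for GGGCGG, 34.1% and 35.7% for CCAAT, 4.88% and 12% for TATAAA, 34.1% and 11.4% for CACGCG, 0% and 1.35% for TTTCGCG, 7.32% and 3.27% for GCGCATGC, and 9.76% and 7.25% for CATGCG. These shares are a description with no test. The 100 bases just before the start are printed 5′ to 3′ for 3 members with CACGTG and 2 with TCGCGA, in capitals where the motif lies. UTP4 is at chr16:69132549-69132648 on the plus strand, UTP20 at chr12:101280005-101280104 on the plus strand, NOP10 at chr15:34343137-34343236 on the minus strand, POLR1B at chr2:112541936-112542035 on the plus strand and NPM1 at chr5:171387749-171387848 on the plus strand.
UTP4: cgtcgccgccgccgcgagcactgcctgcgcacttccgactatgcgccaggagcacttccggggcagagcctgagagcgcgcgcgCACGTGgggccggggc
UTP20: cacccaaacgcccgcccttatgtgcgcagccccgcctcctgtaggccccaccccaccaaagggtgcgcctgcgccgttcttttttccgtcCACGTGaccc
NOP10: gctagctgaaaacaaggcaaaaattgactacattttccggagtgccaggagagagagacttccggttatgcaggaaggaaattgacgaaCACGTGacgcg
POLR1B: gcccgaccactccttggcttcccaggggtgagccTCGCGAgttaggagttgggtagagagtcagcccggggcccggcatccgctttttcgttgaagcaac
NPM1: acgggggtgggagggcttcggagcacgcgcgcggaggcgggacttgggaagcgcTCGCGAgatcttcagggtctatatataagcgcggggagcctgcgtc
The bases just after the start lay in a GENCODE transcript of the gene for 36 of the 41 members, but not for UTP4, so the distance to its start is uncertain. In UTP4, UTP20 and NOP10 the E-box opens 16, 10 and 11 bases before the start, and in POLR1B and NPM1 the TCGCGA opens 66 and 46 bases before it. UTP4 and UTP20 had log2 changes of -0.81 and -0.80 at 2 days of IAA and fell, whereas NOP10 with the same motif was not called. Median 2-day changes were -0.68 over the 13 members with CACGTG and -0.70 over the 28 matched members without it, and in HEK293 after Ku70 withdrawal they were 0.75 and 0.65. A match shows only that these letters lie in the window.

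IAA for 1 day was compared with the 1-day DMSO control, both from that set of 8 libraries. All 48 members had negative log2 changes, with a median of -0.37 against 0.01 over all genes, and IAA and DMSO libraries did not overlap for 47. Signs and overlap were not counted over all genes, and groups of 2 libraries can separate without a change. Only POLR1B fell by the test (-0.75 ± 0.14, adjusted p = 0.022), as 0.0689% of all genes did, and none rose (0.117% of all genes). POLR1B was at 154 and 157 CPM in the DMSO libraries of clones 1 and 9 and at 90.1 and 94.1 CPM after IAA. Leaving out any 1 of these 4 libraries ended that call. Across all 48 members 20 had an unadjusted p under 0.05, DESeq2 called 1 lower, and a fit restricted to the 8 libraries, added after the data were seen, called 32 lower and 0 higher. The percentages above belong to the fit of all degron libraries, and the share of all genes called in the restricted fit is not given here. The next lowest were RRP9 (-0.70 ± 0.22, adjusted p = 0.26) and NOLC1 (-0.55 ± 0.17, adjusted p = 0.25), and the least changed were TAF1D (-0.11), POLR1D (-0.11) and RRN3 (-0.06). Cell cycle markers were at a summed 2462 to 2558 TPM in DMSO and 2373 to 2406 TPM in IAA, and the MYC change was -1.19 ± 0.29 (adjusted p = 0.084).

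At 4 days of IAA 29 members fell and 1 rose, while 14.9% of all genes were called lower and 17.9% higher. Summed levels were 5561, 6798 and 7161 CPM, with clone 1 lowest, and the median log2 change was -0.46 against 0.04 over all genes. NHP2, NPM1 and FBL were lowest (-1.05, -0.99 and -0.92). RRP15 (0.35) and NOP10 (0.09) were highest after RRP12 and were not called. By 6 days 10 members fell and 4 rose, while 17.5% and 17.8% of all genes were called, and the median was -0.07. The 10 that fell were POLR1B, POLR1C, POLR1E, UBTF, NOLC1, FBL, NHP2, RRP1, NCL and NPM1, each of which had also fallen at 2 and 4 days. The 4 that rose were RRP12, RRP9, NOP10 and POLR1D. Without the DMSO library of clone 9 the 6-day calls numbered 8 in place of 14, and with the clone as a block 5 more members passed. Of the calls at 2, 4 and 6 days, 28 of 41, 18 of 30 and 6 of 14 were kept on leaving out each of 6 libraries in turn. Clone 7 was the lowest at 6 days, with summed levels of 9464, 6933 and 8545 CPM in clones 1, 7 and 9.

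Members at 6 days were also compared with 2 days directly. Of the 48, 35 rose and none fell, against 12.8% and 11.8% of all genes, with a median of 0.60. This contrast shares its 2-day IAA libraries with the comparison of 2 days of IAA with DMSO. RRP9 (1.37 ± 0.19, adjusted p = 9.1e-06), RRS1 (1.12 ± 0.22, adjusted p = 0.00067) and RRP12 (1.07 ± 0.16, adjusted p = 3.5e-05) rose most, and UBTF, POLR1E (0.08) and TAF1D (0.14) least. Counts were 7 of 7 processome members, 6 of 6 later small subunit factors, 2 of 5 polymerase subunits and 0 of 3 initiation factors, and differences between roles were not tested. The HEATR1 call was lost in 5 of 6 cases on leaving out a library and that of UTP20 in 3. DESeq2 also called 35 higher and 0 lower, and 37 members had an unadjusted p under 0.05. On the log2(TPM + 1) scale with limma the count was 16 higher and 0 lower, where the median of all genes shifted by -0.15, and POLR1A and POLR1B then had changes of -0.04 and -0.36. Summed cell cycle markers were at 720 to 901 TPM at 6 days, below the 2-day range, and the MYC change from 2 to 6 days was 0.81 ± 0.24 (adjusted p = 0.013). The part of either in the members' rise was not tested.

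Other ribosome biogenesis genes, 127 in 5 lists, were read beside the members. At 2 days of IAA 68 fell and 0 rose, against 9.94% and 9.12% of all genes, with a median of -0.46. The falls were led by NOC2L (-1.72 ± 0.15), a large-subunit factor, and UTP18 (-1.25 ± 0.15), a processome protein. The smallest called changes were those of GTPBP4 (-0.37 ± 0.12) and EXOSC10 (-0.31 ± 0.09), the nuclear exosome's exonuclease. By list, 5 of 12 other polymerase I genes, 6 of 10 snoRNP genes, 20 of 41 small-subunit factors, 29 of 49 large-subunit factors and 8 of 15 exosome genes fell. At 1 day 2 fell (NOC2L, -0.94 ± 0.18, and the polymerase subunit POLR1G, -0.73 ± 0.14) and 0 rose, against 0.0689% and 0.117% of all genes. At 4 days 46 fell, with NOC2L (-1.38 ± 0.15) and UTP18 (-1.36 ± 0.15) lowest, and 5 rose, with UTP14A (0.46 ± 0.13) and DIS3 (0.43 ± 0.14) highest. Shares of all genes were 14.9% lower and 17.9% higher. At 6 days 32 fell, led by AFG2A (-1.16 ± 0.15) and WDR18 (-1.11 ± 0.22), and 22 rose, led by UTP14A (1.1 ± 0.13) and REXO4 (0.82 ± 0.15). Shares of all genes were 17.5% lower and 17.8% higher, so the 22 that rose were near the share of all genes. From 2 to 6 days 63 rose and 1 (AFG2A, -0.43 ± 0.15) fell, against 12.8% and 11.8% of all genes, with RPF2 (1.47 ± 0.16) and PAK1IP1 (1.15 ± 0.19) highest.

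The CDK4/6 inhibitor arms asked how the members respond when the cell cycle is held. At 4 days of inhibitor alone, 1 member rose, POLR1A (0.34 ± 0.09, adjusted p = 0.02), and 0 fell, against 3.85% and 3.84% of all genes. POLR1A was at 235, 232 and 239.5 CPM in clones 1, 7 and 9, above all 3 DMSO values. The summed level of 10262, 9946 and 8781 CPM overlapped the DMSO range, and the median was 0.05. TAF1D (-0.41), RRP1 (-0.25) and PPAN (-0.24) were lowest and RRP15 (0.40) and NIP7 (0.34) highest, none called. With no member called lower, 6 passed an unadjusted p of 0.05, and by DESeq2 2 were higher and 1 lower. The clone as a block gave 2 calls, and the POLR1A call was lost without the DMSO library of clone 1, the DMSO library of clone 9 or the inhibitor library of clone 1. Cell cycle markers were at a summed 1315 to 1537 TPM, below the DMSO range, and MYC rose (0.82 ± 0.23, adjusted p = 0.03).

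At 2 days of inhibitor alone the result depended on the control. Against the 2-day DMSO libraries, which crosses the library sets, 18 members rose and 0 fell, with 20.8% of all genes called higher and 13.6% lower. FBL (1.85 ± 0.20), RRP9 (1.33 ± 0.20) and POLR1C (1.27 ± 0.16) were highest and TAF1D (-0.35), WDR43 (-0.34) and UTP20 (-0.33) lowest. Against the 1-day DMSO libraries of the same set, 0 rose and 6 fell, and the median went from 0.34 to -0.37. In that comparison FBL was at 726 and 616 CPM in DMSO and 566 and 525 CPM with inhibitor, a log2 change of -0.30. The fit of those 8 libraries alone called 36 lower and 0 higher, and limma on log2(TPM + 1) against the 2-day control called 4 higher and 15 lower, where the median of all genes shifted by -0.34. The 18 calls became 10 without the inhibitor library of clone 1 and 6 without that of clone 9. The 4-day inhibitor libraries, set against the 1-day DMSO, gave 31 lower and 0 higher, again across the library sets. The percentages above belong to the comparison with the 2-day DMSO, and shares of all genes called in the other fits are not given here. For the first count 24 members passed an unadjusted p of 0.05, and by DESeq2 19 were higher and 0 lower. With the clone as a block NCL (0.34 ± 0.13, adjusted p = 0.046) and BOP1 (0.46 ± 0.17, adjusted p = 0.039) also passed against the 2-day control. The direction of the members with the inhibitor at 2 days therefore turned with the control used.

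IAA in the presence of the inhibitor was compared with the inhibitor alone, within a library set at each time. At 2 days 0 members rose and 0 fell, with 0.297% and 0.117% of all genes called. Negative changes numbered 46 of 48, a count not made over all genes. The median was -0.24 against -0.004 over all genes, and 7 members had an unadjusted p under 0.05. FBL went from 566 and 525 CPM to 378 and 351 CPM in clones 1 and 9 (-0.58 ± 0.22, adjusted p = 0.36). NPM1 (-0.55) and NOP56 (-0.50) were next lowest, and RRP12 (0.36), GRWD1 (0.04) and RRN3 (-0.01) highest. DESeq2 and the clone block each called 1 lower, POLR1B with the block (-0.49 ± 0.11, adjusted p = 0.044), and the 8-library fit called 11 lower and 1 higher.

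At 4 days with the inhibitor 7 members fell and 0 rose, against 5.1% and 6.13% of all genes. They were FBL, NPM1, NCL, BRIX1, TCOF1, UBTF and POLR1B. On leaving out each of 6 libraries in turn the TCOF1 call was lost in all 6 cases and that of POLR1B in 5, and with the clone as a block NOP56 passed too (-0.36 ± 0.11, adjusted p = 0.028). FBL was at 133, 125 and 145 CPM with inhibitor alone and 80.6, 71.2 and 65.5 CPM with IAA in clones 1, 7 and 9 (-0.89 ± 0.18, adjusted p = 0.0016). NPM1 was at 1698, 1636 and 1254 CPM and 948, 909 and 999.9 CPM (-0.68 ± 0.16, adjusted p = 0.0055), and NCL at 1751, 1686 and 1559 CPM and 1081, 1067 and 1168 CPM (-0.59 ± 0.13, adjusted p = 0.0033). The groups did not overlap for these 3 genes. RRP12 (0.38), RRP9 (0.20) and PNO1 (0.09) were highest and not called, 22 members passed an unadjusted p of 0.05, and by DESeq2 10 were lower and 0 higher. Summed cell cycle markers went from 1315 to 1537 TPM down to 896 to 1048 TPM, and the MYC change was -0.69 ± 0.23 (adjusted p = 0.055). Their part was not tested.

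Whether the inhibitor changed the response to IAA was tested as a difference of differences. At 4 days the control with inhibitor was at 4 days and that without it at 2 days. Control age and inhibitor therefore cannot be told apart there. At 4 days 1 member passed, POLR1C (0.73 ± 0.21, adjusted p = 0.046), with a weaker fall under the inhibitor, and 0 went the other way, against 2.19% and 2.5% of all genes. That count of 1 among 48 is near the share of all genes called higher. The median difference was 0.22, with BOP1 (0.80) and PPAN (0.75) highest and RRP15 (-0.76), GAR1 (-0.57) and NOP10 (-0.39) lowest. The POLR1C call was lost on leaving out 9 of the 12 libraries in turn, and it was not called within the compared groups alone. The clone block gave 5 calls, all higher, with POLR1B (0.47 ± 0.13, adjusted p = 0.035), NOP56 (0.51 ± 0.15, adjusted p = 0.045) and BOP1 (0.80 ± 0.21, adjusted p = 0.027) among those gained. At 2 days, where the libraries with inhibitor belong to the set of 8 and those without it do not, the inhibitor and the set cannot be told apart. There 0 and 0 members passed by edgeR, as did 0% and 0% of all genes. In this contrast 19 members had an unadjusted p under 0.05, DESeq2 called 0, and the median difference was 0.45. NOP16 (0.76), BOP1 (0.69) and NOP56 (0.68) were highest and POLR1D (-0.24), RRP15 (-0.02) and NOP10 (0.10) lowest.

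Of the 127 other pathway genes, 16 fell and 1 (DDX56, 0.36 ± 0.09) rose at 4 days of IAA with inhibitor, against 5.1% and 6.13% of all genes. UTP18 (-0.82 ± 0.14) and POLR1G (-0.73 ± 0.12) led the falls. At 2 days 1 fell (UTP18, -0.84 ± 0.17), against 0.117% of all genes. Inhibitor alone gave 4 higher at 4 days, led by UTP14A (0.78 ± 0.13) and EXOSC6 (0.51 ± 0.11), and 2 lower, the exosome subunits EXOSC8 (-0.77 ± 0.13) and EXOSC9 (-0.73 ± 0.13). Neither count exceeded the share of all genes, 3.85% higher and 3.84% lower. Against the 2-day DMSO, across the library sets, 2 days of inhibitor gave 46 higher, led by EXOSC5 (1.56 ± 0.21) and POLR1H (1.27 ± 0.29), and 7 lower, led by AFG2A (-0.75 ± 0.17) and EXOSC9 (-0.71 ± 0.14). Shares of all genes there were 20.8% and 13.6%. In the 4-day difference of differences 7 were higher, led by EXOSC5 (1.15 ± 0.28) and WDR18 (1.08 ± 0.32), and 2 lower, NSA2 (-0.80 ± 0.17) and UTP14A (-0.65 ± 0.18). Shares of all genes in that contrast were 2.19% and 2.5%.

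Clones without MAVS tested the response where RNA sensing through that adaptor is absent. After 4 days of IAA 7 members fell and 0 rose, against 3.15% and 4.73% of all genes. The 7 were FBL, GNL3, NPM1, POLR1B, NCL, NHP2 and NOLC1. FBL was at 247, 339.9 and 271 CPM in DMSO and 129, 227 and 127 CPM in IAA in clones 1, 13 and 15 (-0.83 ± 0.18, adjusted p = 0.0038). GNL3 was at 151, 179 and 157 CPM and 80, 124 and 93.1 CPM (-0.71 ± 0.16, adjusted p = 0.0056). NPM1 was at 1279, 1462 and 1338 CPM and 791, 920.0 and 782 CPM (-0.71 ± 0.16, adjusted p = 0.0059). All 3 genes were lower in IAA without overlap. Summed levels were 7253, 8285 and 7835 CPM in DMSO and 5205, 7371 and 5433 CPM in IAA, so clone 13 moved least. RRP12 (0.44), RRP9 (0.21) and RRS1 (0.09) were highest, and in clone 13 RRP12 went from 79.6 to 155 CPM. Without the IAA library of clone 13 the calls numbered 17, and without that of clone 15 there was 1, a higher one, so that none of the 7 calls was kept on leaving out each library in turn. TCOF1 also passed with the clone as a block (-0.35 ± 0.10, adjusted p = 0.024). DESeq2 called 11 lower and 0 higher, and 17 members had an unadjusted p under 0.05. MYC fell here too (-1.23 ± 0.24, adjusted p = 0.0015), and summed cell cycle markers were 1933 to 2106 TPM in DMSO and 1428 to 1668 TPM in IAA.

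The difference between MAVS-lacking and MAVS-carrying clones in the 4-day response passed for 1 member, UBTF (0.62 ± 0.13, adjusted p = 0.0045), and 0 were lower, against 2.46% and 2.39% of all genes. That count of 1 among 48 is near the share of all genes called higher. UBTF was at 159.7, 143 and 165 CPM in DMSO and 148, 149 and 136 CPM in IAA without MAVS, where the groups overlapped, while with MAVS its 4-day IAA values lay under all controls. The call held on leaving out each of the 12 libraries, but in a fit of only the compared groups UBTF was not called and no member passed. With the clone as a block TCOF1 (0.52 ± 0.14, adjusted p = 0.024) and NOP56 (0.54 ± 0.15, adjusted p = 0.031) passed too. Calls numbered 3, all higher, without the MAVS-lacking IAA library of clone 1 or of clone 15, and also with the clone as a block. They numbered 2, both higher, without the MAVS-carrying IAA library of clone 9, and 1 higher with 1 lower without the MAVS-carrying IAA library of clone 1 or the MAVS-lacking IAA library of clone 13. NOP16 (0.64) and NOP56 (0.58) were also high and RRP15 (-0.59), RRP12 (-0.24) and GAR1 (-0.21) lowest, none called. The MAVS-carrying control was at 2 days and the MAVS-lacking control at 4 days, and the clones differ, so neither can be told apart from MAVS. For the other pathway genes 12 fell and 2 rose without MAVS, led by NOC2L (-0.80 ± 0.15) and UTP18 (-0.71 ± 0.14) and by LSG1 (0.44 ± 0.13) and DDX56 (0.41 ± 0.09). Shares of all genes were 3.15% lower and 4.73% higher. The difference passed for 4, all higher and near the 2.46% of all genes, with EMG1 (0.76 ± 0.20) and RUVBL2 (0.62 ± 0.18) highest.

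Excision of Ku80 by Cre involves no doxycycline. No label says that the 2 numbered libraries of a group came from separate cultures, so p-values here measure only the spread between those libraries. After 4 days of 4OHT with Cre 17 members rose and 12 fell, while 26.4% and 27.5% of all genes were called, and the median was 0.05. On the log2(TPM + 1) scale with limma the split was 11 higher and 16 lower. The 12 that fell were FBL, TCOF1, BRIX1, POLR1E, NPM1, GNL3, DKC1, UBTF, NOP58, TAF1D, NCL and UTP20. FBL was at 241 and 245 CPM in the 2 ethanol libraries and 138 and 154 CPM in the 2 4OHT libraries (-0.73 ± 0.09, adjusted p = 1.4e-05). TCOF1 was at 183 and 184 CPM in ethanol and 111 and 120.2 CPM in 4OHT (-0.67 ± 0.06, adjusted p = 3.9e-07). Both fell without overlap between ethanol and 4OHT. NPM1 was at 1369 and 1396 CPM in ethanol and 963 and 966 CPM in 4OHT (-0.52 ± 0.05, adjusted p = 1.1e-06). NCL was at 1479 and 1467 CPM in ethanol and 1204 and 1195 CPM in 4OHT (-0.30 ± 0.05, adjusted p = 0.00019). These abundant nucleolar proteins were lower in each 4OHT library than in any ethanol library. UBTF was at 163 and 159 CPM in ethanol and 129 and 119 CPM in 4OHT (-0.38 ± 0.05, adjusted p = 6e-05). DKC1 was at 166 and 155 CPM in ethanol and 124 and 118 CPM in 4OHT (-0.41 ± 0.06, adjusted p = 5.9e-05). UTP20 was at 62.2 and 62.5 CPM in ethanol and 52.5 and 52.7 CPM in 4OHT (-0.25 ± 0.07, adjusted p = 0.012). The initiation factor, the pseudouridine synthase and the processome scaffold were likewise separated between groups, with UTP20 the smallest of the 12 falls, a call lost without either 4OHT library.

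The members that rose with Cre included 4 of 5 polymerase subunits. RRP12, the export factor, had the largest rise. RRP12 was at 95.8 and 92.7 CPM in ethanol and 171 and 171 CPM in 4OHT (0.86 ± 0.06, adjusted p = 3.4e-08). POLR1A was at 162 and 162 CPM in ethanol and 254 and 249.6 CPM in 4OHT (0.64 ± 0.05, adjusted p = 2.5e-07). POLR1B was at 93.7 and 95.9 CPM in ethanol and 119.9 and 122 CPM in 4OHT (0.35 ± 0.06, adjusted p = 0.00012). The 3 genes were higher in each 4OHT library than in any ethanol library. PES1 was at 165 and 162 CPM in ethanol and 231 and 237 CPM in 4OHT (0.52 ± 0.05, adjusted p = 1.6e-06). NOP10 was at 49.6 and 46.2 CPM in ethanol and 69.2 and 67.4 CPM in 4OHT (0.51 ± 0.07, adjusted p = 3.1e-05). RRN3 was at 92 and 94.4 CPM in ethanol and 118 and 125 CPM in 4OHT (0.38 ± 0.05, adjusted p = 4.9e-05). These factors of large-subunit assembly, pseudouridylation and initiation rose without overlap. NOB1 was at 123 and 116 CPM in ethanol and 142 and 141 CPM in 4OHT (0.24 ± 0.05, adjusted p = 0.0015). HEATR1 was at 135 and 138 CPM in ethanol and 136 and 137 CPM in 4OHT. NOP56 was at 358 and 353 CPM in ethanol and 326 and 342 CPM in 4OHT. Of these 3, NOB1 rose, and HEATR1 (0.00) and NOP56 (-0.09) were not called. BOP1 was at 216 and 199 CPM in ethanol and 228 and 229 CPM in 4OHT and was not called either (0.14). Summed levels of the 48 were 8688 and 8648 CPM in ethanol and 8080.2 and 8125 CPM in 4OHT. NPM1 and NCL, which both fell, weigh most in that sum. Cell cycle markers were at a summed 1944 to 1952 TPM in ethanol and 599 to 602 TPM in 4OHT, and MYC rose (0.36 ± 0.05, adjusted p = 2e-05).

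Without Cre, 4OHT gave 7 lower and 0 higher members, against 6.44% and 7.26% of all genes. NOB1 (-0.30), FBL (-0.29), NPM1 (-0.27), TCOF1 (-0.25), TAF1D (-0.24), DKC1 (-0.23) and NOP2 (-0.22) fell. FBL was at 248 and 316 CPM in ethanol and 228 and 232 CPM in 4OHT. GAR1 (-0.33), which passed with the library number as a block, was lowest and RRP15 (0.25), UBTF (0.15) and RRS1 (0.13) highest, none called, and 21 members had an unadjusted p under 0.05. The calls numbered 16 without the first ethanol library and 2 without the first 4OHT library, and DESeq2 called 9 lower and 0 higher. Cell cycle markers were at a summed 1792 to 1816 TPM in ethanol and 1822 to 1827 TPM in 4OHT.

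The Cre-specific response, the difference between the 2 responses to 4OHT, was called higher for 17 members and lower for 9, against 18.8% and 22.4% of all genes. With limma on log2(TPM + 1) the split was 9 and 11, where the median of all genes shifted by -0.18. RRP12 (0.93 ± 0.08, adjusted p = 1.1e-06), NOP10 (0.71 ± 0.10, adjusted p = 7.1e-05), PES1 (0.64 ± 0.07, adjusted p = 1.2e-05) and POLR1A (0.62 ± 0.07, adjusted p = 1.9e-05) were highest. UBTF (-0.53 ± 0.08, adjusted p = 0.00012), BRIX1 (-0.51 ± 0.09, adjusted p = 0.00052) and POLR1E (-0.50 ± 0.11, adjusted p = 0.0021) were lowest, and NOP58, FBL, TCOF1, NPM1, GNL3 and NCL were also lower. The calls of FBL, NPM1, GNL3 and NCL did not all hold on leaving out each library in turn. Among other pathway genes 43 rose and 33 fell with Cre, with DDX49 (1.1 ± 0.12) and EIF6 (0.82 ± 0.06) highest and EXOSC9 (-1.25 ± 0.08) and AFG2A (-0.92 ± 0.08) lowest. Shares of all genes were 26.4% and 27.5%, so the 33 that fell were near the share of all genes. Without Cre 1 rose (RRP7A, 0.24 ± 0.07) and 9 fell, against 7.26% and 6.44% of all genes, with WDR74 (-0.33 ± 0.08) and AATF (-0.31 ± 0.05) lowest. The Cre-specific response was higher for 44 and lower for 16, against 18.8% and 22.4% of all genes. DDX49 (1.16 ± 0.17), URB1 (0.94 ± 0.07), EXOSC9 (-1.20 ± 0.10) and AFG2A (-0.90 ± 0.10) were at the ends.

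In HEK293 most members were higher after 8 days without doxycycline. Of the 48, 31 rose and 0 fell, while 11.1% of all 15549 genes were called higher and 10.9% lower, and the median was 0.66 against 0.00 over all genes. All 3 clones moved up for 44 members, a count not made over all genes. Summed levels were 10994, 9791 and 13284 CPM with doxycycline and 15680, 12405 and 18966 CPM without it in clones Sa11, SB and TI, with clone SB lowest in the latter. No member was called lower, 37 had an unadjusted p under 0.05 in either direction, and DESeq2 called 34 higher and 0 lower. The calls numbered 16 without the doxycycline library of clone Sa11, 18 without that of clone SB and 18 without the withdrawal library of clone Sa11, all higher. With the clone as a block 39 rose, and 16 of the 31 calls were kept on leaving out each library in turn. Cell cycle markers were at a summed 2538 to 2560 TPM with doxycycline and 2223 to 2444 TPM without it, and the MYC change was 0.23 ± 0.25 (adjusted p = 0.55).

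UTP4, of the processome, had the largest rise. UTP4 was at 28.5, 23.1 and 35.2 CPM with doxycycline and 88.9, 50.6 and 90.8 CPM without it in clones Sa11, SB and TI (1.41 ± 0.23, adjusted p = 0.0044). RRN3 was at 35.6, 52.9 and 49.8 CPM with and 104, 74.1 and 164 CPM without doxycycline (1.31 ± 0.27, adjusted p = 0.0098). RRP12 was at 66.1, 70.7 and 64.7 CPM with and 168, 139.8 and 160.2 CPM without doxycycline (1.22 ± 0.12, adjusted p = 0.001). For each of these, every withdrawal library was above every doxycycline library, and RRN3 spread most between clones. PES1 was at 134, 96.6 and 160.2 CPM with and 310.4, 160.4 and 315 CPM without doxycycline (1.01 ± 0.27, adjusted p = 0.026). BOP1 was at 50.9, 49.3 and 55 CPM with and 97.3, 74.5 and 68.5 CPM without doxycycline (0.63 ± 0.15, adjusted p = 0.015). The lowest withdrawal value of PES1, in clone SB, lay at the edge of the doxycycline range, and BOP1 did not overlap. DKC1 was at 197, 195 and 248 CPM with and 412, 330.4 and 461 CPM without doxycycline (0.91 ± 0.16, adjusted p = 0.0058). HEATR1 was at 326, 311 and 398 CPM with and 557, 437 and 638 CPM without doxycycline (0.66 ± 0.17, adjusted p = 0.024). UTP20 was at 98.3, 102 and 126 CPM with and 153, 133 and 188 CPM without doxycycline (0.54 ± 0.16, adjusted p = 0.037). The pseudouridine synthase and both processome proteins were higher in all 3 clones without overlap. NOB1 was at 65.8, 59.2 and 69.7 CPM with and 111, 81.8 and 111 CPM without doxycycline (0.64 ± 0.14, adjusted p = 0.014). POLR1B was at 65.9, 68.5 and 81.3 CPM with and 95.1, 98.3 and 109.8 CPM without doxycycline (0.49 ± 0.12, adjusted p = 0.022). All 6 later small subunit factors, NOB1 among them, rose, as did TAF1D (1.24 ± 0.18). On leaving out each of 6 libraries in turn the calls of HEATR1, PES1, BOP1 and POLR1B were lost in 4 cases each, that of UTP20 in 5, that of NOB1 in 3 and that of RRN3 in 1.

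NPM1, NCL and FBL, which fell at 2, 4 and 6 days of IAA, were not called in HEK293. NPM1 was at 3224, 2701 and 3958 CPM with and 3319.5, 2672 and 4469 CPM without doxycycline (0.08 ± 0.23, adjusted p = 0.84). NCL was at 1153, 833 and 1505 CPM with and 1252, 914 and 1688 CPM without doxycycline (0.14 ± 0.26, adjusted p = 0.75). FBL was at 103, 99.3 and 107 CPM with and 135, 114 and 109.8 CPM without doxycycline (0.21 ± 0.12, adjusted p = 0.24). The groups overlapped for NPM1 and NCL and nearly touched for FBL, and NPM1 and NCL differed more between clones than within one. NOP56 was at 464, 415 and 565 CPM with and 614, 597 and 650.2 CPM without doxycycline (0.37 ± 0.15, adjusted p = 0.1). TCOF1 was at 254, 188 and 266 CPM with and 328, 185 and 309 CPM without doxycycline (0.22 ± 0.22, adjusted p = 0.53). POLR1A was at 78.1, 71 and 85.1 CPM with and 99.3, 88.7 and 86.6 CPM without doxycycline (0.23 ± 0.12, adjusted p = 0.2). NOP56 and POLR1A were higher without overlap but missed the threshold, and TCOF1 overlapped. NOP56 passed with the clone as a block (0.38 ± 0.10, adjusted p = 0.013), and so did 7 further members, NOP58 (0.87 ± 0.14, adjusted p = 0.0005) among them. NOP10 was at 21.4, 22.3 and 20.3 CPM with and 24.4, 19.6 and 23.9 CPM without doxycycline (0.09 ± 0.15, adjusted p = 0.72). UBTF was at 101, 93 and 116 CPM with and 87.3, 92.1 and 91.7 CPM without doxycycline (-0.19 ± 0.12, adjusted p = 0.28). UBTF was the 1 member with a negative change. Of the 127 other pathway genes 61 rose and 0 fell, against 11.1% and 10.9% of all genes. DHX37 (1.63 ± 0.15) and UTP14A (1.59 ± 0.23), both small-subunit factors, rose most, with EXOSC1 (0.41 ± 0.13) and PWP2 (0.46 ± 0.14) the smallest called.

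**Figure D3:**
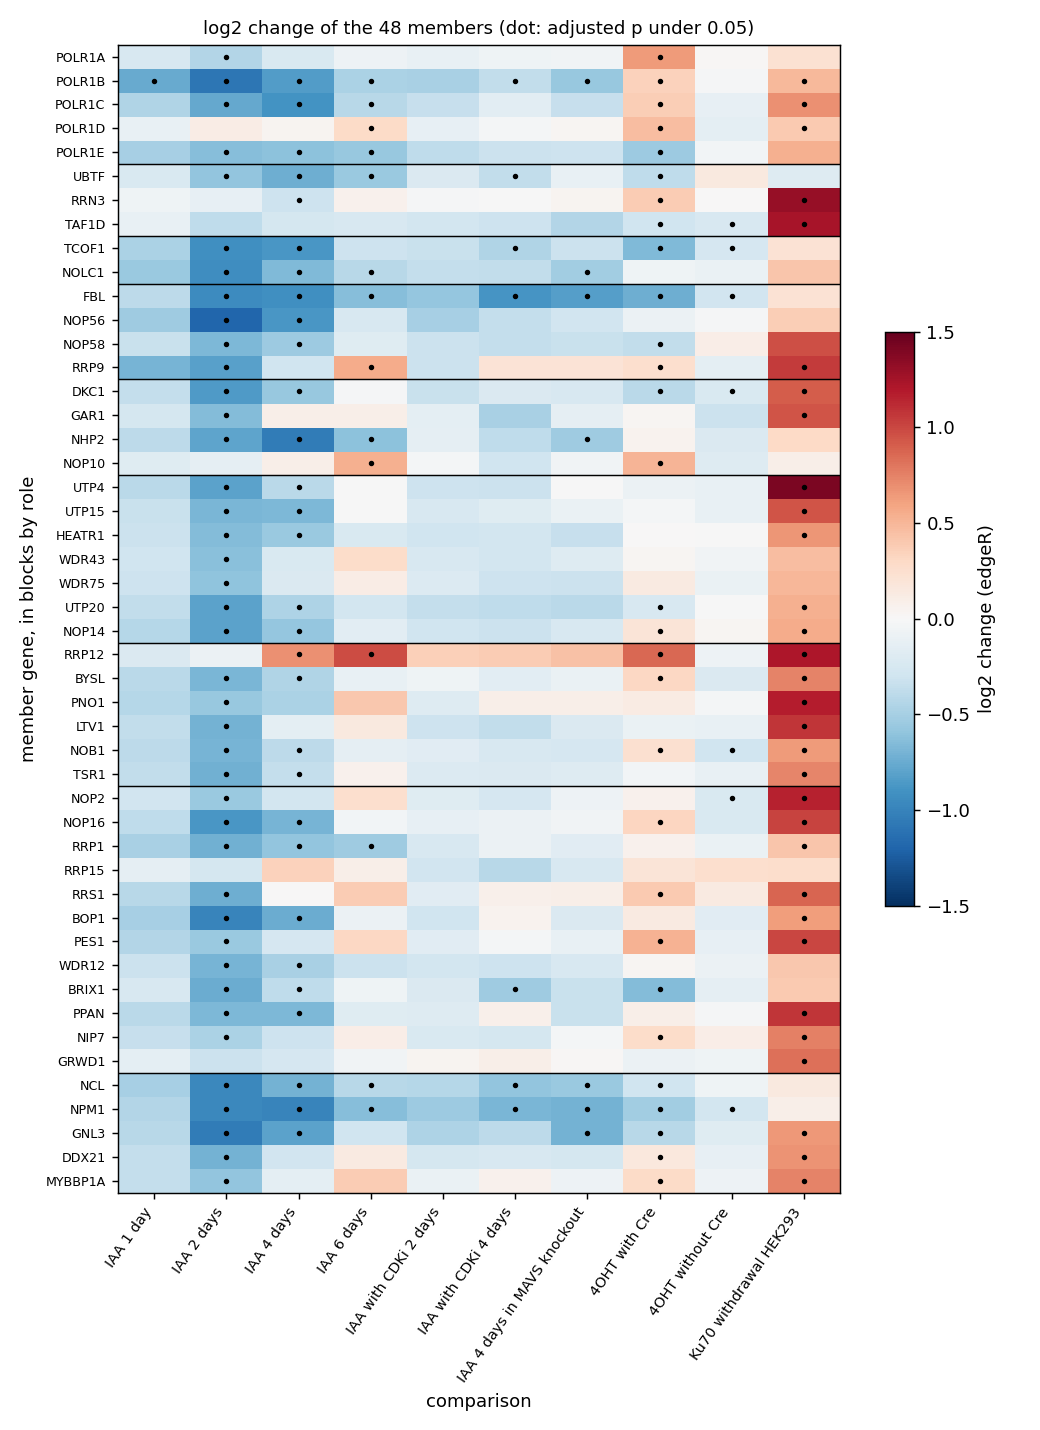
Log2 change of the 48 members (rows, in blocks by role) in 10 comparisons (columns), blue for lower and red for higher, with a dot where the adjusted p is under 0.05. The 2-day IAA column is blue with 41 dots and the HEK293 column red with 31.

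The 3 models share no library and were set side by side. Of the 41 members that fell at 2 days of IAA, 26 rose in HEK293 and 0 fell there, and 11 fell and 13 rose with 4OHT and Cre. Of the 29 that fell at 4 days of IAA, 17 rose in HEK293 and 0 fell there. Among the same 29, 11 fell and 7 rose with 4OHT and Cre, which was also read at 4 days. Of the 31 that rose in HEK293, 15 rose and 4 fell with Cre. Lower values in all 3 degron clones at 2 days and higher values in all 3 HEK293 clones were seen together for 42 members. This difference was neither tested nor counted over all genes, and day, cell line and library type differ between these models. Across the 48 members Pearson's r between log2 changes was 0.19 for 2 days of IAA and HEK293 and 0.49 for 2 days of IAA and Cre. For 4 days of IAA it was 0.31 with HEK293 and 0.54 with Cre, and for Cre and HEK293 it was 0.28. These values are given as a description over genes that share a pathway. At 2 days of IAA in the degron clones and in HEK293 most members were lower in the arm with doxycycline, while at 6 days of IAA the median was -0.07. Ku loss went with doxycycline in the former and with its removal in the latter. Doxycycline and Ku loss cannot be told apart within either model. RRP12 rose in all 3 models at 4 or more days (4 and 6 days of IAA, 4OHT with Cre, HEK293). POLR1D and RRP9 rose at 6 days of IAA, with Cre and in HEK293, and were not called at 4 days of IAA. On leaving out each library in turn the POLR1D call was lost in 4 of 6 cases at 6 days, in 5 of 6 in HEK293 and in none of 4 with Cre, and that of RRP12 in none of them in the 4 comparisons named. The RRP9 call was lost in 3 of 6 cases at 6 days, in 2 of 4 with Cre and in none in HEK293.

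**Figure D4:**
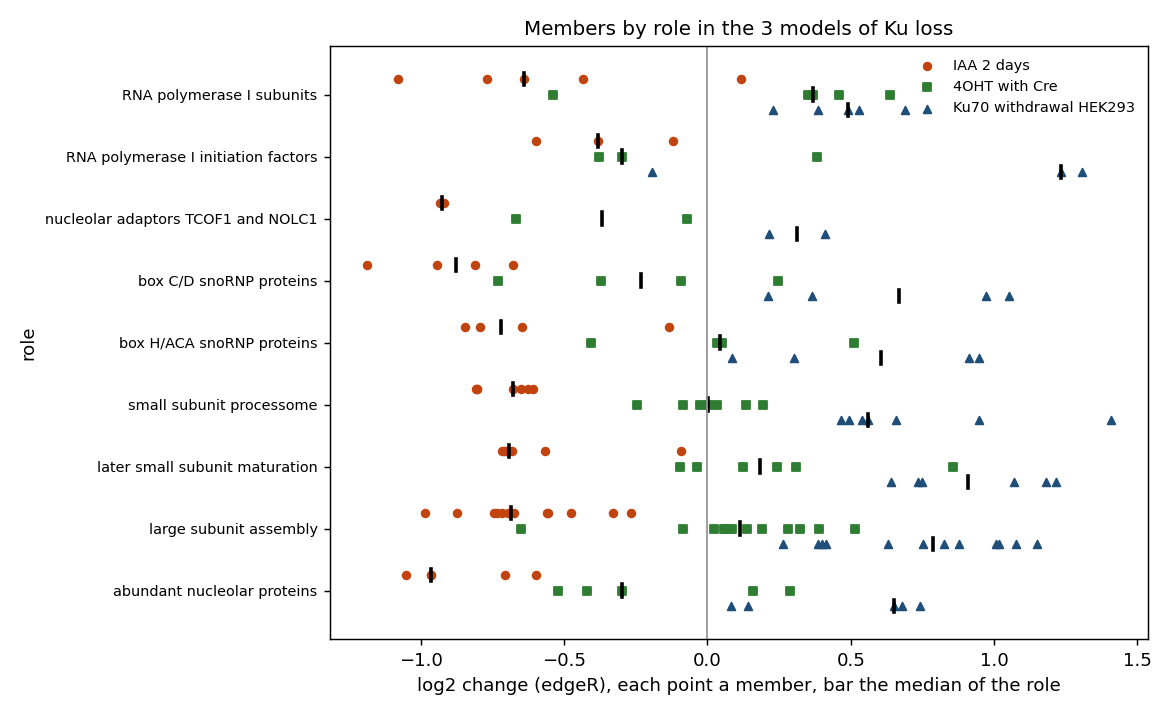
Log2 change of each member (points, horizontal axis) by role (vertical axis) after 2 days of IAA, after 4OHT with Cre and after Ku70 withdrawal in HEK293, with the median of each role as a bar. All role medians are negative for 2 days of IAA, from -0.96 to -0.38, and positive for HEK293, from 0.31 to 1.24.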

How the data were processed

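RNA was sequenced from 46 libraries, with poly-A enrichment in HCT116 and ribosomal RNA depletion in HEK293, per the labels' protocols. The authors deposited estimated counts and TPM per gene, and the submitters' processing notes name Salmon 1.10.2, kallisto 0.50.0, DESeq2 and GRCh38 without saying which made which table. Estimated counts were rounded and tested with edgeR 4.0.16 (quasi-likelihood, TMM scaling, default filter on low counts by group, R 4.3.3) in 3 fits: 32 degron libraries (18877 genes, 20 residual degrees of freedom), 8 Ku86flox/- libraries (16726 genes, 4) and 6 HEK293 libraries (15549 genes, 4). Every adjusted p is edgeR's, adjusted by Benjamini and Hochberg over all genes of a fit, and a call is an adjusted p under 0.05. Changes are log2 ± standard error, taken as the size of the change over the square root of the F statistic. The scripts were tested on simulated data.

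Groups came from the labels. Interaction contrasts subtract the response without the modifier from that with it. Clone names in the labels pair the degron, MAVS-lacking and HEK293 libraries. Correlations of same-clone deviations ran from 0.0051 to 0.467. The Ku86flox/- libraries share only numbers. Across 38 replicate pairs the chi-square per degree of freedom was at least 1.98, so no library was taken for a copy. Nothing says that the numbered Ku86flox/- libraries came from separate cultures, so p-values there measure only the spread between those libraries, which may be technical. Counting precision follows the library totals given in the report.

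Alternatives were DESeq2 1.42.0, RLE factors, the fit of genes without a low-count filter, limma 3.58.1 (trend) with a pseudocount of 1 on TPM for genes at 1 TPM or more in at least 2 libraries, only the compared groups, the clone or number as a block, the 1-day DMSO control, and leaving out each library. Fits of the 8 libraries of the 1-day and 2-day inhibitor groups and of the 12 libraries of the IAA course were added after the data were seen.

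The members and lists were chosen with earlier results of these data known. Named genes were 16 lead members, the 3 lowest and 3 highest members of each comparison, called members against the majority, and the 2 lowest and 2 highest called genes of the other pathway lists. RRP12 values per library and the promoters shown were chosen after their values were seen.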

Additional observations from a re-analysis of the deposited data

Results flagged for a closer look

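Some responses differed between conditions by a test of the difference itself. The 4-day response to IAA differed with the CDK4/6 inhibitor for 1 member, POLR1C (0.73 on the log2 scale, inhibitor minus no inhibitor), and without MAVS for 1 member, UBTF (0.62, MAVS-lacking minus MAVS-carrying). Of all genes 2.19% were called higher and 2.5% lower in the first contrast, and 2.46% and 2.39% in the second. In each contrast 1 call among 48 members is near the share of all genes called higher. In fits of only the compared groups neither member passed, with 0 calls in each contrast, and the POLR1C call was lost on leaving out 9 of 12 libraries in turn. Controls of different age go with both contrasts, and different clones with the second, so neither modifier can be told apart from these.

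The response to 4OHT differed between cells with and without Cre for 26 members, 17 higher and 9 lower, against 18.8% and 22.4% of all genes. These calls rest on 2 numbered libraries per group, which may not be separate cultures. The difference in log2 change, Cre minus no Cre, is given for 8 of the 17, chosen by the rule for named genes, and for all 9 that were lower. It was positive for RRP12 (0.93), NOP10 (0.71), PES1 (0.64), POLR1A (0.62), NOB1 (0.54), RRN3 (0.38), POLR1B (0.37) and BOP1 (0.31). It was negative for UBTF (-0.53), BRIX1 (-0.51), POLR1E (-0.50), NOP58 (-0.47), FBL (-0.44), TCOF1 (-0.42), NPM1 (-0.25), GNL3 (-0.24) and NCL (-0.23). The calls of BOP1, FBL, NPM1, GNL3 and NCL did not all hold on leaving out each library in turn, in fits that leave a group with 1 library. BOP1 was not called for 4OHT with Cre by itself.

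For 42 members the level was lower in all 3 degron clones after 2 days of IAA and higher in all 3 HEK293 clones after Ku70 withdrawal. This difference between the models was neither tested nor counted over all genes. The models also differ in day (2 and 8), cell line and library type. At 6 days of IAA 17 members were lower and 8 higher in all 3 degron clones, with a median of -0.07. For the 42 members at 2 days the arm with doxycycline was the lower one in both models, where doxycycline and Ku loss cannot be told apart.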

How the results depend on the processing

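Counts below are of the 48 members called, and the shares of all genes called under these alternatives are not given here. After 1 day of IAA the 1 call became 0 with limma on log2(TPM + 1), 37 within the compared groups, 32 within the 8 libraries of its set and 0 to 0 without any 1 library. Leaving out libraries of the IAA course gave between 32 and 40 calls (2 days), 21 and 29 (4 days), 8 and 17 (6 days), and 27 and 38 for 6 against 2 days, where limma gave 16. For 2 days of inhibitor, 18 calls became 19 with limma (4 higher, 15 lower), 34 within the compared groups, 6 against the 1-day DMSO, 36 within the 8 libraries and 6 to 16 without a library. For 4 days of inhibitor, 1 call became 2 with RLE factors, 1 lower without a count filter, 3 with DESeq2, 5 with limma, 3 within the compared groups, 31 against the 1-day DMSO and 0 to 2 without a library. For IAA with inhibitor at 2 days, 0 calls became 2 without a count filter, 1 with DESeq2, 5 within the compared groups and 12 within the 8 libraries, and 0 to 0 without a library. At 4 days 7 became 2 with limma, 16 within the compared groups and 5 to 8 without a library. The inhibitor's change of the 4-day response gave 5 without a count filter, 3 with DESeq2, 11 with limma, 0 within the compared groups and 0 to 4 without a library, and that at 2 days 0 to 0. Without MAVS, 7 became 11 with DESeq2, 4 with limma, 2 within the compared groups and 1 to 17 without a library. The MAVS difference gave 2 without a count filter, 3 with DESeq2, 5 with limma, 0 within the compared groups and 1 to 3 without a library. With 4OHT and Cre limma gave 27 (11 higher, 16 lower) and leaving out libraries 24 to 27. Without Cre there were 13 without a count filter, 2 with limma and 2 to 16 without a library, and the Cre-specific response gave 20 with limma and 20 to 30 without a library. HEK293 gave 16 to 39 without a library. Fits that leave a group with 1 library assume that it varies like the others. The cause of these shifts was not tested.

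With the clone as a replicate block, 4 days of inhibitor gave 2 calls, IAA with inhibitor at 2 days 1, the inhibitor's change of the 4-day response 5, the MAVS difference 3, HEK293 39 (from 31) and 6 days of IAA 19 (from 14). With the block members gained 34 calls over all comparisons and lost 1, that of PPAN for 6 against 2 days.

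Single genes turned direction in 14 cases. For 2 days of inhibitor against the 1-day DMSO, POLR1A was at -0.21, POLR1C at -0.14, FBL at -0.30, RRP9 at -0.53, DKC1 at -0.45, NOP10 at -0.11 and PES1 at -0.46, and with limma DKC1 was at -0.12 and NOP10 at -0.012. POLR1A with 4 days of inhibitor was at -0.20 against the 1-day DMSO and -0.026 with limma. With limma POLR1A was at -0.039 and POLR1B at -0.36 for 6 against 2 days, and BOP1 at -0.15 for the Cre-specific response.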
